A study of Mus musculus with 12 samples.

Results

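The 10 genes described here belong to the NRF2 antioxidant response: the transcription factor gene Nfe2l2, its inhibitor Keap1, and the target genes Nqo1, Gclc, Gclm, Hmox1, Txnrd1, Srxn1, Slc7a11 and Ephx1. They were found in mouse liver by the RefSeq transcript of each array probe, and the brightest probe stood for a gene, which gave 10 of the 22911 gene symbols on the array (12 probes, a pair each for Txnrd1 and Slc7a11). NRF2, the protein of Nfe2l2, is held in the cytoplasm by KEAP1, which hands it to a ubiquitin ligase for degradation. Oxidants and electrophiles modify cysteines of KEAP1, NRF2 then accumulates, enters the nucleus, pairs with a small MAF protein and binds antioxidant response elements beside its target genes. In the liver these targets make glutathione, reduce thioredoxin, degrade heme and detoxify quinones and epoxides.

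Liver RNA came from 12 male mice, wild type (WT) or lacking Akp3, the gene of an intestinal alkaline phosphatase (IAP, Akp3-/-, called knockout here). Mice of both genotypes were 7 weeks old and were dosed by mouth daily for 14 days, either with 600 mg/kg per day of IIAEK, a pentapeptide of isoleucine, isoleucine, alanine, glutamate and lysine, or with vehicle, a 5 g/L solution of carboxymethylcellulose. This gave 4 groups of 3 mice: WT vehicle, WT IIAEK, knockout vehicle and knockout IIAEK. All mice went without food for 8 h before sampling, controls included. The comparisons ask how the liver responded to IIAEK in each genotype and whether the response differed without Akp3. Both Akp3 probes were not well above background on any of the 12 arrays, in either genotype, so the arrays do not check the knockout.

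A level is given as the log2 processed signal minus the 75th percentile of that array, so 1 unit is a doubling and 0 is the 75th percentile. Levels are compared between arrays for 1 probe at a time, since probes of different genes differ in brightness. The 75th percentile signal ran from 453.6 to 758.5, and 56.8% to 61.9% of probes were well above background. The 9 measured hepatocyte markers were above background on all 12 arrays. Before any group is compared, 4 arrays have to be named: WT vehicle 2 and 3 and knockout vehicle 1 and 3 lay at 74.0 to 88.1 on the first principal component of all tested genes (55.3% of the variance), and the other 8 arrays lay at -57.2 to -11.3. WT vehicle 1 and knockout vehicle 2 were thus nearer to the IIAEK arrays than to the other vehicle arrays. Changes of the tested members with IIAEK in each genotype are given with and without these 4 arrays. Without them each vehicle group holds 1 array, whose spread is then assumed to be that of the other groups. For WT that array is vehicle 1, which carried pancreas transcripts. In that fit the 7 tested pancreas markers had a median change with IIAEK of -2.99 in WT, small intestine markers -2.47 and red cell markers 1.37. Every WT value without the 4 arrays rests on this array.

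Promoter sequences are shown for Srxn1, Slc7a11 and Gclm because their levels separated the 4 arrays from the other 8 and because each window holds the letters of an antioxidant response element core. The windows are from RefSeq, build GRCm38.p6, and run from 250 bases before to 50 bases after the start of the gene, on the strand of the gene. Capitals mark every match to TGACNNNGC or TGAGNNNGC on either strand. The Srxn1 window is chr2:152105274-152105573 (plus strand), that of Slc7a11 is chr3:50443564-50443863 (minus strand) and that of Gclm is chr3:122245307-122245606 (plus strand).
Srxn1: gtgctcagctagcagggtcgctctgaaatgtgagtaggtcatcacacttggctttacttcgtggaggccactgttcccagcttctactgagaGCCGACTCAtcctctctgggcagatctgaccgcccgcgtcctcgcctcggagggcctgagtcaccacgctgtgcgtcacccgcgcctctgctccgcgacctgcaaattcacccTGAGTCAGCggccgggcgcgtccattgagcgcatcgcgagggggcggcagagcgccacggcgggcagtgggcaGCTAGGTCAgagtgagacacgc
Slc7a11: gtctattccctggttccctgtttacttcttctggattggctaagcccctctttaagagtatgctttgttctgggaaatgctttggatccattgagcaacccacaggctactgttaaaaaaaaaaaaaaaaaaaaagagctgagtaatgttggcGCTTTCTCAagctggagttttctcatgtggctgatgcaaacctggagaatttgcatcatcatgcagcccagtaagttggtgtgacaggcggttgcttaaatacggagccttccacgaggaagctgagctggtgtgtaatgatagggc
Gclm: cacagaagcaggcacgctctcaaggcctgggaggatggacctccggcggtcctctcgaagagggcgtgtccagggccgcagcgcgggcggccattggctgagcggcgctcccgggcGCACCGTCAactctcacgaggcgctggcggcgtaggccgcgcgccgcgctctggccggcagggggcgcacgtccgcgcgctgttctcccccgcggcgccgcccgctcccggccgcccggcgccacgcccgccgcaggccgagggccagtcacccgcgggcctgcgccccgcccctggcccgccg

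Srxn1 held 3 matches, more than any other member window. Counted from the start of the gene, with negative positions before it, TGAGTCAGC lay at -45 on the strand of the gene, and TGAGTCGGC at -158 and TGACCTAGC at 28 on the opposite strand. Slc7a11 held TGAGAAAGC at -97 and Gclm held TGACGGTGC at -134, both on the opposite strand. Of the 8 member genes with a window, 5 held a match: these 3, Nfe2l2, and Txnrd1 in 1 of its 3 windows. The same letters occurred in 27.8% of all 32851 promoter windows, TGACNNNGC in 12.4% and TGAGNNNGC in 17.6%. A match in these windows is a run of letters and no binding was measured. The windows of Gclc and Hmox1 were not analysed here.

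Both genes at the head of the pathway were expressed in every liver and varied little. Nfe2l2, which encodes NRF2, was at log2 levels of 2.95, 3.34 and 3.59 in WT vehicle, 2.97, 3.26 and 3.20 in WT IIAEK, 3.38, 3.23 and 3.62 in knockout vehicle, and 3.38, 3.47 and 3.26 in knockout IIAEK (replicates 1, 2 and 3 in that order, here and below). The groups overlapped in both genotypes. Its change with IIAEK was -0.15 in WT (95% interval -0.56 to 0.25, adjusted p = 0.718) and -0.04 in knockout (-0.45 to 0.36, adjusted p = 0.932). The estimates were 0.19 and 0.14 without the 4 arrays.

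Keap1, whose protein retains NRF2 and targets it for degradation, was at 2.35, 1.50 and 2.01 in WT vehicle, 2.0, 2.22 and 2.17 in WT IIAEK, 2.07, 2.38 and 2.06 in knockout vehicle, and 2.21, 2.21 and 2.20 in knockout IIAEK. The knockout IIAEK livers were almost equal (2.21 ± 0.0021, SD, n = 3), and WT vehicle 2 was the lowest liver of all. The change with IIAEK was 0.17 in WT (-0.27 to 0.61, adjusted p = 0.709) and 0.03 in knockout (-0.41 to 0.48, adjusted p = 0.952). Both were negative without the 4 arrays, -0.23 and -0.18. The SD over the 12 arrays was at percentile 18.5 of all tested features for Nfe2l2 and at percentile 23.6 for Keap1.

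The pathway's other 12 regulators were all measured and 0 of 12 passed the threshold (adjusted p under 0.05) in any of the 6 comparisons. They were the ubiquitin ligase genes Cul3, Rbx1 and Btrc, the kinase gene Gsk3b that marks NRF2 for degradation, the repressors Bach1 and Bach2 that compete for response elements, the small MAF genes Mafg, Maff and Mafk, the related factor Nfe2l1, and Sqstm1 and Ppp1r13l, whose proteins bind KEAP1. Averaged over genotypes, their changes with IIAEK ran from -0.84 (Maff) to 0.66 (Bach2), 7 positive and 5 negative. The smallest p belonged to Maff in knockout livers, -1.21 (SE 0.34, adjusted p = 0.656), and -0.79 without the 4 arrays. Ppp1r13l was at 0.52 averaged over genotypes (SE 0.20, adjusted p = 0.189) and at 0.06 without the 4 arrays.

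The cystine importer and both subunits of the enzyme that makes the first intermediate of glutathione had opposite patterns across the arrays. Slc7a11, the cystine-glutamate antiporter subunit that brings in cystine for glutathione synthesis, was well above background on 4 of 12 arrays. These were the 4 arrays that stood apart: -3.43 and -3.33 in WT vehicle 2 and 3, and -4.80 and -3.09 in knockout vehicle 1 and 3. WT vehicle 1 was at -6.51 and knockout vehicle 2 at -8.23, the IIAEK livers were at -7.74, -7.93 and -7.85 in WT and -8.04, -6.83 and -7.83 in knockout, and none of these 8 was well above background. No group measured Slc7a11 on all 3 of its arrays, so it was not among the 9 members tested.

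Against the lowest signal above background on each IIAEK array, mean Slc7a11 was 2.15-fold higher in WT vehicle and 1.28-fold higher in knockout vehicle. Each vehicle mean includes an array not well above background, taken at its measured value, so these are not strict lower bounds. In each vehicle group 2 of 3 arrays measured it, and the measured means were -4.43 against -7.84 in WT and -5.37 against -7.57 in knockout. The second probe was above background on 4 arrays too, and gave 1.06-fold in knockout and no fold in WT, where the ratio was under 1. With every probe tested regardless of background, the WT change was -3.41 (SE 1.16, unadjusted p = 0.0141, adjusted p = 0.514) and the knockout change -2.19 (SE 1.16, adjusted p = 0.660). Without the 4 arrays no measured Slc7a11 level remained in any group.

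Gclc, the catalytic subunit of glutamate-cysteine ligase, which limits the rate of glutathione synthesis, showed the reverse pattern. Its levels were 5.02, 3.26 and 3.88 in WT vehicle, 5.25, 5.50 and 5.41 in WT IIAEK, 3.36, 5.40 and 4.31 in knockout vehicle, and 5.25, 5.12 and 5.01 in knockout IIAEK. The lowest 4 livers were the 4 arrays that stood apart, and the other vehicle livers lay at or near the IIAEK levels. In WT every IIAEK liver was above every vehicle liver, whereas in knockout the groups overlapped.

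Mean Gclc was 5.39 ± 0.13 in WT IIAEK and 4.05 ± 0.89 in WT vehicle (SD, n = 3), a change of 1.34 (SE 0.50, 2.53-fold, interval 0.24 to 2.43, unadjusted p = 0.0211, adjusted p = 0.395). The knockout change was 0.77 (SE 0.50, interval -0.32 to 1.86, adjusted p = 0.656). On slide 1, which carried replicate 1 of each group, the difference was 0.24 in WT and 1.90 in knockout, and on slide 2 with replicates 2 and 3 it was 1.89 and 0.21. The slides thus gave opposite orders of the genotypes, and each large value came where all vehicle arrays of that genotype and slide were among the 4. Slide 1 alone allows no test. Without the 4 arrays the Gclc change was 0.37 in WT (SE 0.18, adjusted p = 0.543) and -0.27 in knockout (SE 0.18, adjusted p = 1).

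Gclm, the modifier subunit that raises the activity of GCLC, was at 5.34, 4.49 and 4.30 in WT vehicle, 5.05, 4.99 and 5.01 in WT IIAEK, 4.42, 4.80 and 4.48 in knockout vehicle, and 4.92, 4.55 and 4.85 in knockout IIAEK. WT vehicle 1 was the highest liver and the 4 arrays that stood apart were the lowest. The change with IIAEK was 0.30 in WT (interval -0.24 to 0.84, adjusted p = 0.573) and 0.21 in knockout (-0.33 to 0.75, adjusted p = 0.742). Leaving out the 4 arrays gave -0.33 and -0.02. Gclc and Gclm, whose proteins form 1 enzyme, had a Pearson r of 0.74 over the 12 arrays.

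**Figure D1:**
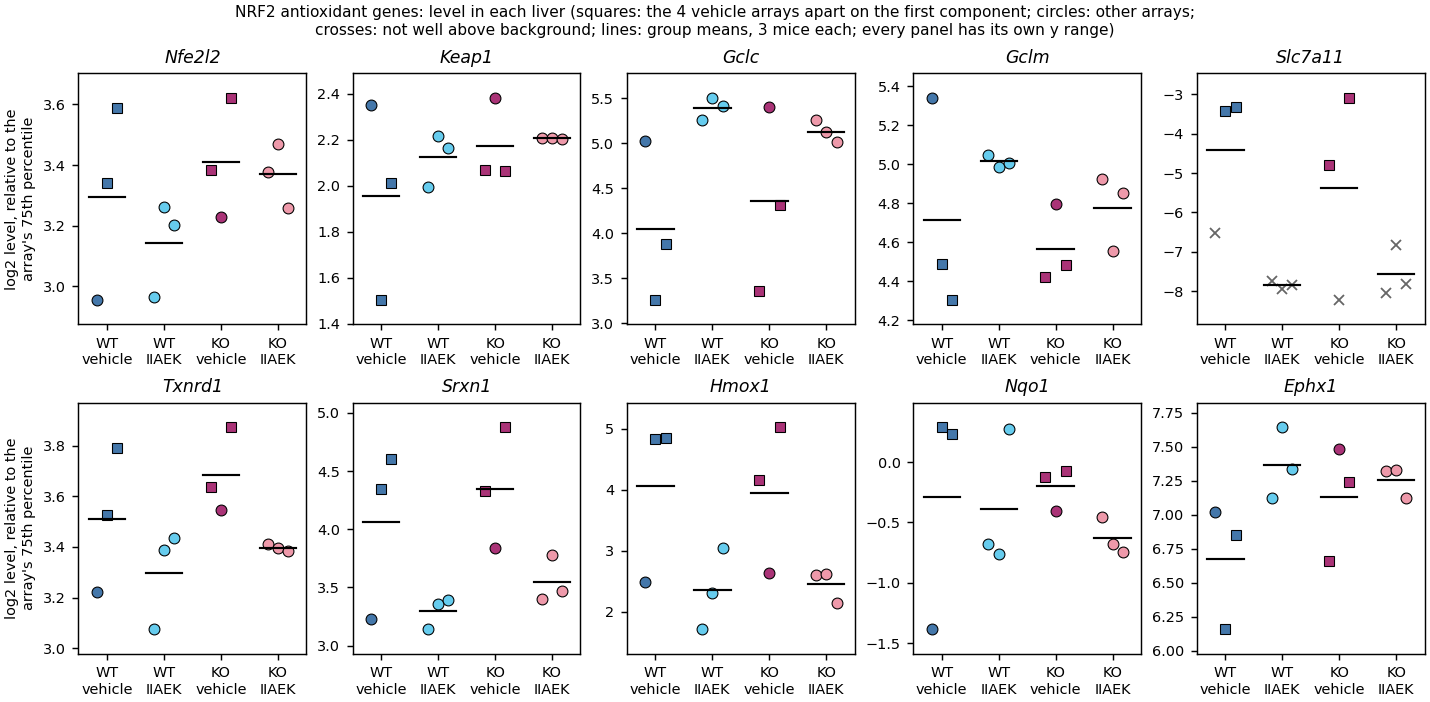
Level of each of the 10 genes in each of the 12 livers, as log2 signal relative to the 75th percentile of the array, with 1 point per mouse (replicates 1 to 3 from left to right) and a line at each group mean. Squares mark the 4 vehicle arrays apart on the first principal component, circles the other arrays and crosses values not well above background. The squares lie above all other points for Hmox1, Srxn1 and Slc7a11 and below all others for Gclc and Gclm.

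Of the thioredoxin arm, Srxn1 varied more than most genes and Txnrd1 less (percentiles 83.7 and 22.2 of the SD over the 12 arrays). Srxn1, sulfiredoxin, which repairs overoxidised peroxiredoxins, was at 3.23, 4.35 and 4.60 in WT vehicle, 3.14, 3.36 and 3.39 in WT IIAEK, 4.33, 3.84 and 4.88 in knockout vehicle, and 3.40, 3.77 and 3.47 in knockout IIAEK. All 3 knockout IIAEK livers were below all 3 knockout vehicle livers, and in WT only vehicle 1 overlapped with IIAEK. The 4 highest livers were the 4 arrays that stood apart.

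Mean Srxn1 was 3.29 ± 0.14 in WT IIAEK against 4.06 ± 0.73 in WT vehicle, and 3.55 ± 0.20 in knockout IIAEK against 4.35 ± 0.52 in knockout vehicle (SD, n = 3). The changes were -0.77 in WT (SE 0.35, interval -1.53 to -0.0035, adjusted p = 0.397) and -0.80 in knockout (SE 0.35, interval -1.56 to -0.04, unadjusted p = 0.0416, adjusted p = 0.656). Slide 1 gave -0.09 and -0.93, and slide 2 gave -1.10 and -0.73. With the 4 arrays left out the Srxn1 change was 0.06 (SE 0.21) in WT and -0.29 (SE 0.21, adjusted p = 1) in knockout.

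Txnrd1, the cytosolic thioredoxin reductase, was at 3.22, 3.52 and 3.79 in WT vehicle, 3.07, 3.39 and 3.43 in WT IIAEK, 3.64, 3.54 and 3.87 in knockout vehicle, and 3.41, 3.40 and 3.38 in knockout IIAEK. The knockout groups did not overlap, and the WT groups did. The change was -0.21 in WT (interval -0.60 to 0.17, adjusted p = 0.575) and -0.29 in knockout (-0.67 to 0.09, adjusted p = 0.656). The second Txnrd1 probe gave -0.30 and -0.25. On the other 8 arrays the brightest probe gave 0.08 and -0.15. The second probe was at 2.61 in WT vehicle 1, above WT IIAEK at 2.24, 2.44 and 2.20. In knockout vehicle 2 it was at 2.475, above knockout IIAEK at 2.32, 2.22 and 2.33. The WT sign thus turned without the 4 arrays for the brightest probe only.

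Hmox1 varied most among the 9 tested members, with an SD over the 12 arrays at percentile 97.2 of tested features. It encodes heme oxygenase 1, which degrades heme to biliverdin, iron and carbon monoxide, and in the liver it is also made by Kupffer cells that take up red cells. The livers were at 2.48, 4.83 and 4.85 in WT vehicle, 1.71, 2.31 and 3.05 in WT IIAEK, 4.16, 2.64 and 5.02 in knockout vehicle, and 2.60, 2.63 and 2.15 in knockout IIAEK. The 4 arrays that stood apart lay at 4.16 to 5.02 and the other 8 livers at 1.71 to 3.05. Knockout IIAEK livers were all below knockout vehicle livers, while knockout vehicle 2 exceeded the highest of them by less than 0.01. In WT, vehicle 1 lay within the IIAEK range.

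The Hmox1 mean was 2.36 ± 0.67 in WT IIAEK and 4.06 ± 1.36 in WT vehicle (SD, n = 3), a change of -1.70 (SE 0.70, 3.25-fold lower, interval -3.24 to -0.15, unadjusted p = 0.0340, adjusted p = 0.395). In knockout it was 2.46 ± 0.27 against 3.94 ± 1.21, a change of -1.48 (SE 0.70, interval -3.02 to 0.07, adjusted p = 0.656). Slide 1 gave -0.77 in WT and -1.55 in knockout, and slide 2 gave -2.16 and -1.44. On the other 8 arrays alone the Hmox1 change was -0.13 (SE 0.47, adjusted p = 0.955) in WT and -0.18 (SE 0.47, adjusted p = 1) in knockout.

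Markers of several other cell types were also high on the arrays with high Hmox1. All 12 Kupffer cell and macrophage markers, the gene Clec4f among them, were above background on all arrays, and their median deviation from the 12-array mean was 0.50 to 0.80 on the 4 arrays and -0.87 to 0.30 on the others. Their summed level, as signal relative to the 75th percentile, ran from 130 to 368 in WT vehicle, 102 to 215 in WT IIAEK, 132 to 316 in knockout vehicle and 98.1 to 174 in knockout IIAEK. The WT IIAEK liver with the most Hmox1, replicate 3, had the highest Kupffer median among the IIAEK livers (0.30) and the highest red cell median of all (1.80). The neutrophil and monocyte list, with 6 or 7 of 7 markers above background on every array (Ngp on 3 arrays), stood at 1.28 to 1.64 on the 4 arrays and at -1.11 to 0.06 on the others. The list's summed level ran from 4.69 to 17.9 in WT vehicle, 5.23 to 13.4 in WT IIAEK, 4.46 to 16.4 in knockout vehicle and 6.52 to 10.2 in knockout IIAEK. The bile duct list was at 0.74 to 1.22 on the 4 arrays and at -0.74 to -0.25 on the others. The stellate cell and fibroblast list was at 0.43 to 0.68 on the 4 arrays and at -0.57 to 0.17 on the others. The hepatocyte list went the other way, at -0.44 to -0.13 on the 4 arrays and -0.11 to 0.52 on the others. For the medians of the endothelium, red cell and T and NK lists the 4 arrays overlapped with the others. The summed T and NK level was lower on the 4 arrays, at 18.5 to 25.1 against 26.7 to 55.6. The part of these cells in the Hmox1 values was not tested, and in whole liver more cells of a type and more RNA per cell cannot be told apart.

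Nqo1, the quinone reductase that is often used as a readout of NRF2 activity, did not separate the treatments in WT. Its levels were -1.39, 0.29 and 0.23 in WT vehicle, -0.68, -0.76 and 0.28 in WT IIAEK, -0.12, -0.41 and -0.07 in knockout vehicle, and -0.46, -0.67 and -0.75 in knockout IIAEK. WT vehicle held both the lowest and the highest liver. In knockout the groups did not overlap, with IIAEK lower. The change was -0.10 in WT (interval -1.02 to 0.82, adjusted p = 0.923) and -0.43 in knockout (-1.35 to 0.49, adjusted p = 0.704). Leaving out the 4 arrays gave 0.998 in WT (SE 0.40, adjusted p = 0.467), against the single low vehicle liver, and -0.22 in knockout (SE 0.40).

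WT vehicle 1, the liver with the least Nqo1, also carried pancreas transcripts, with a median deviation of 3.84 over 11 pancreas markers against -0.69 to 0.65 on the other arrays. All 11 of 11 were above background there and 5 to 10 of 11 elsewhere, and their summed level ran from 6.43 to 20.8 in WT vehicle, 7.90 to 9.83 in WT IIAEK, 6.09 to 8.92 in knockout vehicle and 9.10 to 11.7 in knockout IIAEK. WT vehicle 2 and 1 had the highest small intestine medians, with deviations of 3.44 and 1.38 over 10 markers against -1.18 to 0.51 elsewhere. The summed level went otherwise, at 207 in WT vehicle 2 and 105 in WT vehicle 1, the lowest of all arrays, against 124 to 288 elsewhere. Lct, Muc2, Reg3b, Reg3g, Cdx1 and Cdx2 were above background on 1 to 6 of 12 arrays, so the medians rest partly on values near background. Of these markers 7 to 10 were above background in WT vehicle and 3 to 6 in the other groups. The part of either tissue in the member values was not tested.

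Ephx1, the microsomal epoxide hydrolase, is a target of the xenobiotic receptor CAR as well as of NRF2. It was at 7.02, 6.16 and 6.85 in WT vehicle, 7.13, 7.65 and 7.34 in WT IIAEK, 6.66, 7.48 and 7.24 in knockout vehicle, and 7.32, 7.33 and 7.12 in knockout IIAEK. All WT IIAEK livers were above all WT vehicle livers, and the knockout groups overlapped. The change was 0.69 in WT (SE 0.27, 1.62-fold, interval 0.11 to 1.28, unadjusted p = 0.0247, adjusted p = 0.395) and 0.13 in knockout (SE 0.27, interval -0.46 to 0.72, adjusted p = 0.849). Slide 1 gave 0.11 and 0.66, and slide 2 gave 0.99 and -0.14. The Ephx1 change on the other 8 arrays was 0.35 (SE 0.23, adjusted p = 0.649) in WT and -0.23 (SE 0.23) in knockout.

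**Figure D2:**
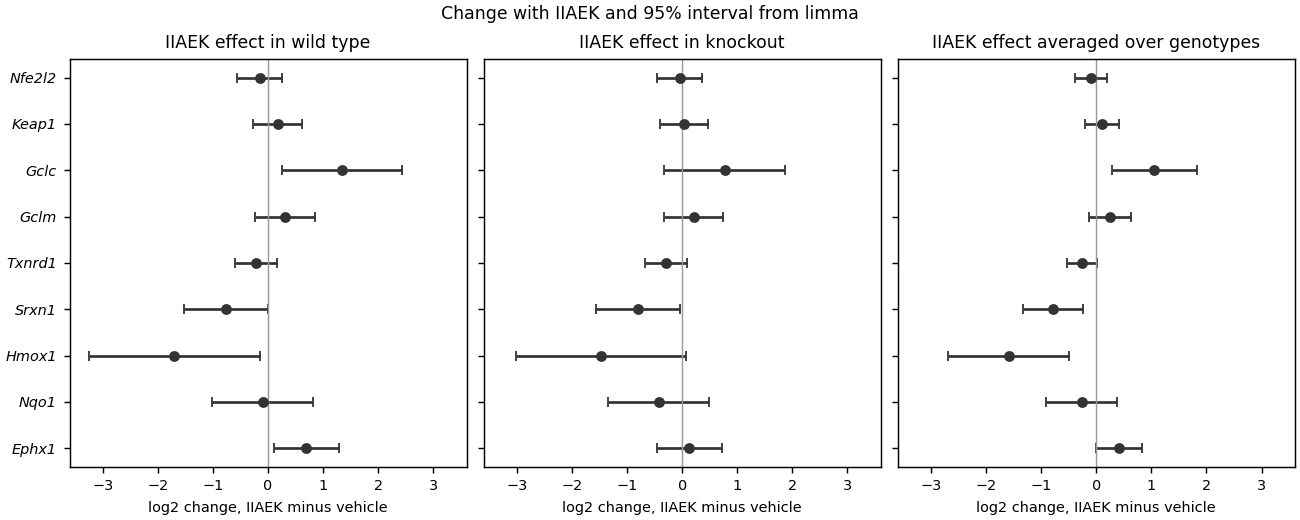
Log2 change with IIAEK (IIAEK minus vehicle) of the 9 tested genes in WT, in knockout and averaged over genotypes, as points with 95% intervals from limma. In WT the intervals of Gclc, Ephx1, Hmox1 and Srxn1 lie to 1 side of 0, in knockout only that of Srxn1 does, and 0 of 9 genes passed after adjustment in any panel.

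Counted together, 0 of 9 tested members passed limma's test in WT livers given IIAEK, where 1 of 26405 tested features did (0.00379%). At an unadjusted p under 0.05 there were 4 of 9, Gclc and Ephx1 higher and Hmox1 and Srxn1 lower, beside 12.6% of all features. Non-overlapping groups were seen for 2 of 9 (Gclc and Ephx1, both higher), beside 12.9% of all features in either direction and 7.09% in that direction. The members' median change was -0.10, and that of all features was 0.03.

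In knockout livers 0 of 9 members passed, as did 0% of all features. At an unadjusted p under 0.05 there was 1 of 9, Srxn1, beside 6.46% of all features. The groups of 4 of 9 members did not overlap, all lower with IIAEK (Hmox1, Srxn1, Txnrd1 and Nqo1), beside 15.5% of all features in either direction and 5.92% in that direction. The median change was -0.04 and that of all features 0.05.

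Averaged over genotypes, again 0 of 9 members and 0% of features passed, while 3 of 9 members had an unadjusted p under 0.05 beside 22.8% of features. These were Hmox1 at -1.59 (SE 0.49, 3.01-fold lower, unadjusted p = 0.00854), Srxn1 at -0.78 (SE 0.24, 1.72-fold lower, unadjusted p = 0.00865) and Gclc at 1.05 (SE 0.35, 2.08-fold higher, unadjusted p = 0.0122), each with an adjusted p of 0.181. These averages became -0.15, -0.11 and 0.05 without the 4 arrays. The count depended on the Txnrd1 probe. In limma with the second probe Txnrd1 was at -0.28 (SE 0.10, unadjusted p = 0.0161, adjusted p = 0.185). With that probe 4 of 9 members had an unadjusted p under 0.05.

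How many members passed turned on single vehicle arrays. Without WT vehicle 1, so that WT vehicle was represented by arrays of the 4 alone, 4 of 9 members passed in WT: Gclc 1.82, Gclm 0.62, Hmox1 -2.48 and Srxn1 -1.18 (adjusted p = 0.0341, 0.0406, 0.0314 and 0.0309). The same 4 genes passed in the averaged effect without that array. Without knockout vehicle 2, Gclc at 1.32, Hmox1 at -1.91 and Srxn1 at -0.91 passed in the averaged effect (adjusted p = 0.0384, 0.0387 and 0.0461). Of all 26405 features, 3908 passed in WT and 6505 in the averaged effect without WT vehicle 1, and 2521 in the averaged effect without knockout vehicle 2. Sizes moved too: leaving out knockout vehicle 1 or 2 took the knockout change of Gclc to 0.27 or 1.29, and leaving out WT vehicle 3 or 1 took the WT change of Gclm to 0.10 or 0.62. For Srxn1 in WT the same arrays gave -0.50 and -1.18, and for Hmox1 in knockout leaving out vehicle 3 or 2 gave -0.94 and -2.13. Calls without all 4 arrays are not counted here, since each vehicle group then holds 1 array.

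**Figure D3:**
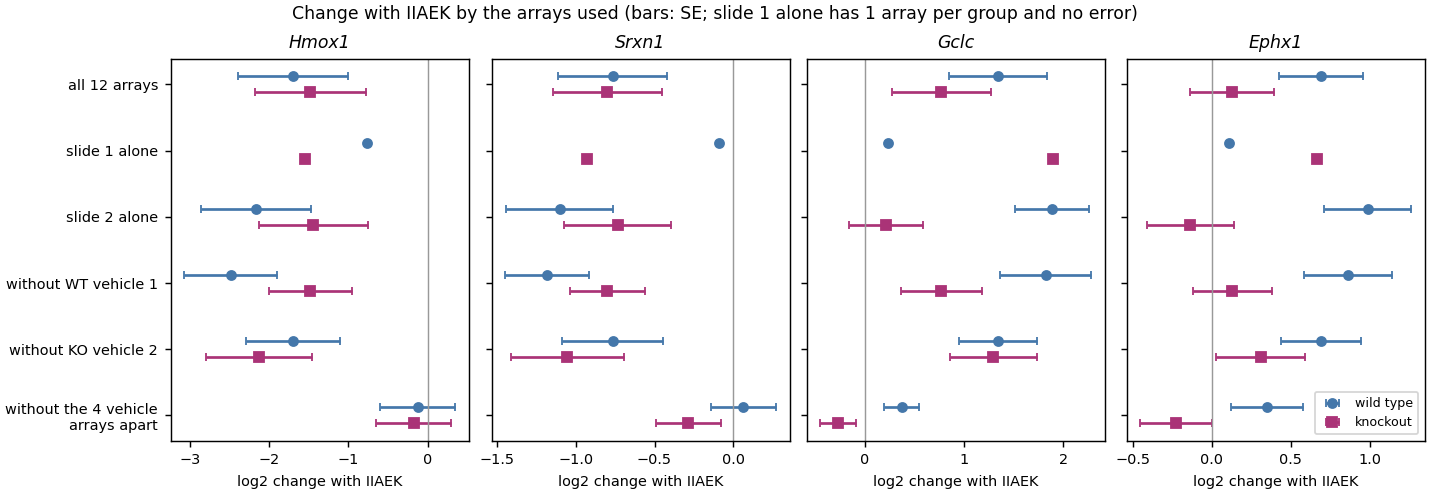
Log2 change with IIAEK of Hmox1, Srxn1, Gclc and Ephx1 in WT (circles) and knockout (squares), computed from all 12 arrays and from subsets of them, with bars of 1 SE where a model was fitted. With the 4 arrays left out the Hmox1 changes move from -1.70 and -1.48 to -0.13 and -0.18, and the Gclc changes from 1.34 and 0.77 to 0.37 and -0.27.

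The response to IIAEK was not shown to depend on the genotype for any member. In the interaction 0 of 9 members passed, as did 0% of features, and 0 of 9 had an unadjusted p under 0.05, beside 1.62% of features. The smallest p was that of Ephx1, whose change in knockout minus that in WT was -0.56 (SE 0.38, interval -1.39 to 0.27, adjusted p = 1).

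Between genotypes under vehicle, 0 of 9 members passed (0.00379% of features), 0 of 9 had an unadjusted p under 0.05 (6.87% of features) and 0 of 9 had groups apart (8.64%). Ephx1 had the smallest p, 0.45 higher in knockout (SE 0.27, interval -0.13 to 1.04, adjusted p = 0.710). This comparison shares the WT vehicle and knockout vehicle arrays with the IIAEK comparisons.

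Under IIAEK, where the 4 arrays enter only the shared estimate of the spread, 0 of 9 members passed (0.00757% of features) and 0 of 9 had an unadjusted p under 0.05 (7.88% of features). The groups of 3 of 9 did not overlap, beside 27.8% of features: Gclc was 0.26 lower in knockout, with levels of 5.010 to 5.253 against 5.254 to 5.504, Gclm was 0.24 lower and Srxn1 0.25 higher. Their adjusted p values were 0.884, 0.768 and 0.830. Nfe2l2 had the smallest p, 0.23 higher in knockout (SE 0.18, adjusted p = 0.708).

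Across the 12 livers the members split into genes that were high on the 4 arrays and genes that were low on them. Hmox1, Srxn1 and Slc7a11 were higher on each of the 4 arrays than on each of the other 8, and Gclc and Gclm were lower. Among the 9 tested members that is 22.2% in each direction, and among all tested features 10.6% were higher and 12.2% lower. The first component was drawn from the same arrays and from these genes among others, so these shares are a description. Pearson r with that component was 0.97 for Hmox1, 0.94 for Srxn1, 0.94 for Slc7a11 (8 of its 12 values not well above background), 0.82 for Txnrd1, 0.74 for Nfe2l2 and 0.73 for Nqo1, and -0.91 for Gclc, -0.88 for Gclm, -0.66 for Ephx1 and -0.65 for Keap1.

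The members did not vary as a block. Over the 12 arrays, which share these 4, Pearson r was 0.94 for Hmox1 with Srxn1 (Spearman rho 0.87) and 0.92 for Txnrd1 with Srxn1 (rho 0.90). It was 0.88 for Gclc with Ephx1 (rho 0.90), -0.89 for Gclm with Srxn1 (rho -0.94) and -0.84 for Gclc with Hmox1 (rho -0.55). For Hmox1 with Slc7a11, whose values on 8 of 12 arrays were not well above background, r was 0.94 and rho 0.61. The r values of Txnrd1, here and with the first component, are of its brightest probe. Its second probe was at 2.61 in WT vehicle 1 and 2.41 in WT vehicle 2, where Srxn1 was at 3.23 and 4.35. Srxn1 and Gclm, whose promoters are printed above, ran in opposite directions. Both windows were picked for holding a match to the response element letters, so the match cannot be set against direction here.

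**Figure D4:**
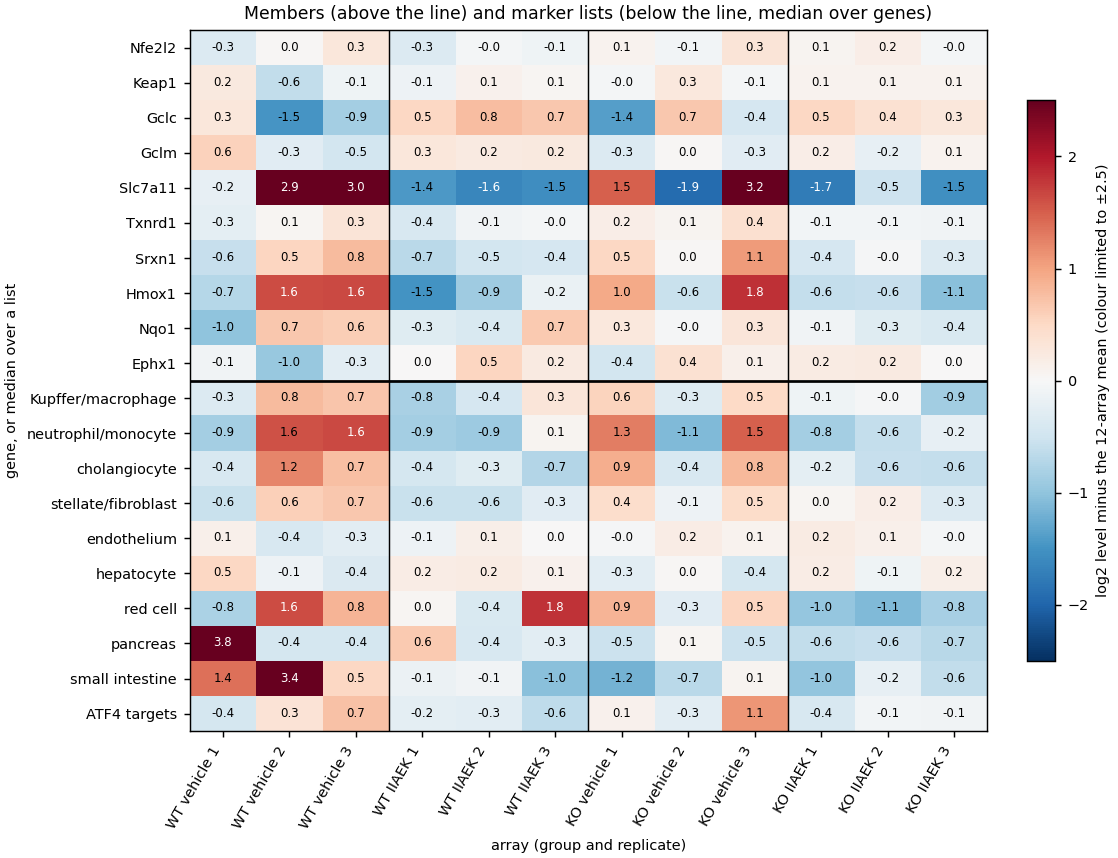
Deviation of each member from the 12-array mean (upper rows), in log2 units, for each array in columns grouped by genotype and treatment. Lower rows give the median deviation of marker lists and of ATF4 targets, a list that includes Atf4 itself. WT vehicle 2 and 3 and knockout vehicle 1 and 3 show high Slc7a11, Hmox1 and Srxn1 and low Gclc, with high neutrophil/monocyte (1.28 to 1.64) and Kupffer/macrophage (0.50 to 0.80) medians.

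The genes whose levels were most like those of 4 members over the 12 arrays, among 14166 genes above background on all arrays, were found by Pearson r. For Hmox1 they were Treml4 (0.99), Igsf6 (0.99) and Pak1 (0.98). For Gclc they were Aox1 (0.99), an aldehyde oxidase, Fech (0.98), the last enzyme of heme synthesis, and Naxd (0.98), which repairs damaged NADPH. For Nqo1 they were Rasl2-9 (0.95), Dse (0.92) and Gm16404 (0.92). For Slc7a11, of which 8 of 12 values were below background, they were Anxa9 (0.98), Osmr (0.97) and Mogat2 (0.97).

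Other lists of the pathway gave 0 called genes in any of the 6 comparisons, and their medians are set beside those of all features (0.03 in WT, 0.05 in knockout). The glutathione enzymes (15 of 16 tested, Ggt1 above background on 0 arrays) had median changes with IIAEK of 0.21 in WT and -0.20 in knockout, and thioredoxin and peroxiredoxin genes (11 of 11) 0.23 and 0.15. Further NRF2 targets (16 of 16) were at 0.17 and -0.0044, enzymes that supply NADPH (6 of 6) at 0.17 and 0.22, and superoxide dismutases and catalase (4 of 4) at 0.38 and 0.29. Heme and iron genes (10 of 10) were at -0.06 and 0.07. On the other 8 arrays the WT and knockout medians were -0.05 and -0.01 for thioredoxin and peroxiredoxin genes, -0.12 and -0.02 for superoxide dismutases and catalase, and 0.19 and -0.20 for NADPH supply. They were 0.15 and -0.10 for glutathione enzymes, 0.29 and -0.05 for further NRF2 targets, and -0.04 and 0.03 for heme and iron genes.

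Single genes of these lists with the smallest p did not pass either, with adjusted p between 0.181 and 0.227 in the averaged effect of all 12 arrays. Among glutathione genes Gstm1, a glutathione S-transferase, was at 0.50 (SE 0.16) and Cth, which makes cysteine from cystathionine, at -0.94 (SE 0.34). Txnrd3 was at 0.77 and the mitochondrial reductase Txnrd2 at 0.52. Aox1 was at 1.05 and the carboxylesterase Ces2g at 0.71. Of the pentose phosphate enzymes Tkt was at 0.42 and Pgd at -0.74. Catalase (Cat) was at 0.93, biliverdin reductase B (Blvrb) at 0.67 and ceruloplasmin (Cp) at -0.32. Without the 4 arrays these 11 values lay between -0.19 (Cth) and 0.33 (Gstm1), with Cat at -0.14 and Cp at 0.03. With array weights 16 of the 18 genes named from the pathway lists gained a call. Without WT vehicle 1 it was 13, and without knockout vehicle 2 it was 9. In the averaged effect these settings called 7819, 6505 and 2521 of all 26405 features, and array weights called 800 in knockout. The 18 genes were named for their small p in the same arrays, so their gained calls are no support of their own. The lowest adjusted p of these genes, all from limma with array weights, were 0.00648 for Aox1, Blvrb and Atf3 and 0.00661 for Cat. Asns followed at 0.00761 and Ces2g at 0.00871. Sod3 was 0.74 higher in knockout than in WT under vehicle (SE 0.25, adjusted p = 0.710), and 0.76 higher without the 4 arrays.

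Slc7a11 is also a target of ATF4, the factor of the amino acid response. A list of 11 genes, Atf4 itself and targets of ATF4, was measured beside it. The medians of this list were -0.42 in WT and -0.66 in knockout, and 0 of 11 passed. Asns, asparagine synthetase, was at -2.05 (SE 0.49) and the stress factor Atf3 at -2.63 (SE 0.81) in the averaged effect, both with an adjusted p of 0.181. On the other 8 arrays the list medians were -0.05 and -0.03, Asns was at -1.03 and Atf3 at -0.05. Ephx1 was set beside 9 tested targets of CAR and PXR, the xenobiotic receptors, whose medians were 0.42 in WT and -0.79 in knockout with 0 of 9 called, and 1.26 and -0.0039 without the 4 arrays. Cyp3a11 had an interaction of -1.54 (SE 0.35, unadjusted p = 0.00125, adjusted p = 1; -1.97 without the 4 arrays), and Por, the reductase that feeds cytochromes P450, was at -0.68 in the averaged effect (SE 0.17, adjusted p = 0.181) and -0.69 without the 4 arrays.

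Among markers of other cells, 1 was called with IIAEK, Tagln of the stellate cell and fibroblast list in WT (-1.43, adjusted p = 0.0318). That call was lost under 16 of 26 alternatives, with slide as a block (adjusted p = 0.0704), the replicate block (0.271), array weights (0.0625), only the groups compared (0.530), slide 2 alone (0.111), without the 4 arrays (0.0937) and under 10 of the 12 fits that left out 1 array, at changes of -1.54 to -1.33 in all 26. Medians in WT and knockout were -0.65 and -0.65 for Kupffer cells, -1.44 and -0.81 for neutrophils and monocytes, -0.93 and -0.90 for bile duct cells, and -0.66 and -0.31 for stellate cells and fibroblasts. They were 0.12 and 0.24 for hepatocytes, 0.17 and 0.14 for endothelium, -0.43 and 0.19 for T and NK cells, and 0.05 and -1.46 for red cells. Pancreas markers were at -0.89 and -0.19 and small intestine markers at -3.19 and 0.16. On the other 8 arrays the Kupffer medians were 0.10 and -0.01, those of neutrophils and monocytes 0.15 and 0.75, of bile duct cells -0.27 and 0.01, of stellate cells 0.26 and 0.08, and of hepatocytes -0.34 and -0.02. Hmox1, Srxn1 and Slc7a11 were thus high on the same arrays as the Kupffer, neutrophil, bile duct, and stellate and fibroblast lists. The part of cell makeup in the values of these 3 genes was not tested.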

How the data were processed

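Liver RNA of 12 mice was measured on 12 one-colour Agilent arrays. The authors' deposited scanner files hold spot intensities that were background subtracted and detrended by Agilent Feature Extraction 10.7.3.1, build mm9, per the file headers. The deposited series table holds the authors' log2 values, which followed the scanner values on the same scale at r of 0.9997 to 0.9999 per array, so the direction is known. Its column medians ran from -0.154 to 0.171, and how its genes were centred is not given in the sources used here.

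Levels are log2 processed intensity minus each array's 75th percentile. Probes were named through RefSeq accessions (32994 of 56605 probes). The test took in every gene whose brightest probe exceeded background throughout 1 group or more (26405 features, unnamed probes included), with limma 3.58.1 in R 4.3.3 on 4 group means (8 residual degrees of freedom) and Benjamini-Hochberg adjustment, threshold 0.05. Intervals are 95%. The script was tested on simulated data. Precision is limited by 3 mice per group, so p-values cover the spread between these mice. Replicate 1 of each group lay on slide 1, replicates 2 and 3 on slide 2, each with its own scan. Members and lists were chosen with earlier results of these data known. Named were all members, all regulators, the 2 genes of each other pathway list with the smallest p, and the 3 genes most like Nqo1, Gclc, Hmox1 and Slc7a11. Background correction, normalization, filter, probe choice, slide, replicate number, array weights and left-out arrays were varied. The fit without 4 arrays was chosen after seeing the data. No protein sequence was used here.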

Additional observations from a re-analysis of the deposited data

How the results depend on the processing

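Without the 4 vehicle arrays apart, an alternative chosen after seeing the data, signs turned for these members. In WT they were Nqo1 (1.0), Gclm (-0.33), Txnrd1 (0.077, brightest probe only), Srxn1 (0.065), Nfe2l2 (0.19) and Keap1 (-0.23). In knockout they were Gclc (-0.27), Gclm (-0.021), Ephx1 (-0.23), Nfe2l2 (0.14) and Keap1 (-0.18). In the averaged effect they were Nqo1 (0.39), Gclm (-0.17), Nfe2l2 (0.16) and Keap1 (-0.20), with Cp (0.030) and Cat (-0.14) of the other lists. Quantile normalization turned Keap1 in knockout (-0.0062), and slide 2 alone turned Ephx1 (-0.14) and Keap1 (-0.018) there. Slide 1 alone, with 1 array per group and no test, turned Nqo1 (0.71), Gclm (-0.29), Nfe2l2 (0.012) and Keap1 (-0.36) in WT, Nqo1 (0.19), Nfe2l2 (0.0032) and Keap1 (-0.11) in the averaged effect, and Ephx1 between genotypes under vehicle (-0.36) and in the interaction (0.56). The causes were not tested. Leaving out 1 array at a time gave ranges across 0 for Nqo1 in WT (-0.65 to 0.19), Keap1 in WT (-0.056 to 0.37), in knockout (-0.020 to 0.14) and averaged (-0.011 to 0.20), and Ephx1 (-0.11 to 0.31) and Nfe2l2 (-0.13 to 0.062) in knockout. Counts of members called ran from 0 to 4 of 9 in WT and from 0 to 4 of 9 in the averaged effect when 1 array was left out, 4 without WT vehicle 1 in both. Array weights gave 1 of 9 in knockout (Srxn1, 800 features called in all) and 6 of 9 in the averaged effect (7819 features). Direction and call were kept by 216 of 235 member values in WT, 221 of 235 in knockout, 205 of 226 in the averaged effect, 25 of 26 and 104 of 104 between genotypes under vehicle and IIAEK, and 24 of 25 in the interaction. Of 452 values of the 18 genes named from other lists, 412 did, 38 gained a call and 2 turned. These counts overstate stability. A left-out array of the other genotype does not enter the WT or knockout change, so those values could not turn. The slide block and the replicate block also left the members' changes with IIAEK as they were. No member and none of these 18 genes passed in the unvaried fit, so a kept call means only that none was made. With slide as a block 0 of 9 members were called in each comparison. The replicate block called 0 of 9 members in each of the 6 comparisons. Same-numbered arrays of different groups did not deviate together (median r 0.04, from -0.55 to 0.65 over 18 pairs), so the numbers were not taken as pairs. A fit to only the groups compared exists for neither the interaction nor the averaged effect, and Slc7a11 has alternatives only without the filter, since its signal was near background on 8 arrays.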
